A study of Rattus norvegicus with 16 samples.

Results

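The genes described here make cholesterol and fatty acids: Hmgcs1, Fdps, Fdft1, Sqle, Cyp51, Idi1, Acat2, Acly and Scd2. They were read through every probe set (a group of short DNA probes on the array that together measure 1 transcript) whose only gene symbol in the platform annotation was one of the 9. This gave 25 of 8799 probe sets, for 8 of the 9 genes; Hmgcs1 had no probe set under its symbol and is not analysed here. Of the 25 probe sets, 23 were called Present (signal above the background of the mismatch probes) on at least 3 of 16 arrays and were among the 4413 tested. One further probe set was shared by Scd2 and other genes and was not used.

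RNA came from rat pontine nuclei, which lie in the brainstem and send axons to the cerebellum, after an injury made along those axons and away from the nuclei. On the lesion side 3 arrays each stood for transection of the axons, for lysolecithin (a lipid that strips myelin) and for saline, collected on days 4, 10 and 37 after the intervention. The 7 controls were the contralateral nuclei of the same 3 interventions on days 10 and 37 and 1 healthy control. Every condition had 1 array and the strain, sex, age and number of rats per array are not given in the sources used here, so arrays of different days served as the replicates of an intervention and p-values measure only the spread between these arrays.

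Neurons and glia of the brain make their own cholesterol, because the sterol carried in blood lipoproteins does not cross the blood-brain barrier. Acly cleaves citrate to supply cytosolic acetyl-CoA, Acat2 joins acetyl-CoA units at the entry of the mevalonate pathway, and Idi1 and Fdps build the isoprenoid chain. Fdft1 makes squalene, Sqle oxidises it, and Cyp51 removes a methyl group from lanosterol on the way to cholesterol. Scd2 puts a double bond into saturated fatty acids made from the same acetyl-CoA. The factors of the SREBP family are known to raise the transcription of these genes when membrane sterol is low, together with NF-Y and Sp1.

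The promoters of Acat2, Idi1, Fdps and Cyp51, the sterol synthesis members with both a probe set and a promoter entry, are shown because SREBP, NF-Y and Sp1 act through short motifs near the gene start. Each stretch runs from 250 bases before to 50 bases after the start of the gene, 5′ to 3′ on the gene's strand, from RefSeq on build GRCr8. Of the 9 genes 7 had an entry. The positions are chr1:50100590-50100889 (plus strand) for Acat2, chr17:66547475-66547774 (minus) for Idi1, chr2:176804767-176805066 (minus) for Fdps and chr4:30991443-30991742 (plus) for Cyp51. Capitals mark the core of the sterol regulatory element (CACNCCAC), the NF-Y box (CCAAT) and the GC box bound by Sp1 (GGGCGG), each searched on both strands.
Acat2: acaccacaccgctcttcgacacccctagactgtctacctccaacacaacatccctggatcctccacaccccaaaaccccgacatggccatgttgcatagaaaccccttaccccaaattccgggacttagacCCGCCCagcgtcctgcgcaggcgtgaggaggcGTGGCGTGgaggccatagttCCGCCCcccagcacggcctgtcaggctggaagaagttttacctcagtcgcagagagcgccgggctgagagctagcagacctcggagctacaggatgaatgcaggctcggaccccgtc
Idi1: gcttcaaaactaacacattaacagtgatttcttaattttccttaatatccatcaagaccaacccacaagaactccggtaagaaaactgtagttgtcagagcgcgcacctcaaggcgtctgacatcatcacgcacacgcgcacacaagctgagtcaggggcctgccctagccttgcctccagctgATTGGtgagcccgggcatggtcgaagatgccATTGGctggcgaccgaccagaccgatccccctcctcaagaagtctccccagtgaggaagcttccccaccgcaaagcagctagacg
Fdps: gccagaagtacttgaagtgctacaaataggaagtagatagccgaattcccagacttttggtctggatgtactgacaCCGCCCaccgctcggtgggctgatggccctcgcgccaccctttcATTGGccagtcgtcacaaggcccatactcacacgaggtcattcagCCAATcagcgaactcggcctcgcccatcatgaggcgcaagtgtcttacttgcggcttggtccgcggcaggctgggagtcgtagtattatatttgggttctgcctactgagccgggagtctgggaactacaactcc
Cyp51: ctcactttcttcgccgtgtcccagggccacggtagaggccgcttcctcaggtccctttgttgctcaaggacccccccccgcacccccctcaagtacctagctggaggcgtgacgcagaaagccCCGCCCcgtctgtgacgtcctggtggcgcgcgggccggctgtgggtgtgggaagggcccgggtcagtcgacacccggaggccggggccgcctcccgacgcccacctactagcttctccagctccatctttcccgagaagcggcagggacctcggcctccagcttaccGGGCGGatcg
The NF-Y box lay in 5 of the 7 promoters and in 37.5% of all 33469 in the table, the GC box in 5 of 7 and in 33.1% of all. The sterol element core lay in 1 of 7, that of Acat2, and in 5.8% of all. No match overlapped another. A match is a run of letters and not a measured binding site, and no match says only that these letters are not in this window.

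On the 16 arrays 39.9 to 47.1% of probe sets were called Present, and the deposited scaling gave every array the same trimmed mean signal. Each array's mean correlation with the others over all probe sets was 0.941 for the array of the healthy control and 0.959 to 0.969 for the rest. The 3′/5′ signal ratio of beta-actin, which grows as RNA degrades, was 1.07 to 1.42 after transection, 1.20 to 1.44 after lysolecithin and 1.41 to 1.68 after saline on the lesion side, and 1.04 to 1.53 on the controls. That of GAPDH did not show this order, with 1.07 to 1.19, 1.03 to 1.16 and 1.09 to 1.16 on the lesion side, and 1.07 to 1.26 on the controls. Markers of the tissue were found: all 7 tested neuronal and all 9 tested oligodendrocyte markers were Present on all 16 arrays. The summed signal of the 7 neuronal markers was 47655 to 54877 on the transection, 53993 to 57485 on the lysolecithin and 55364 to 63372 on the saline lesion-side arrays. That of the 9 oligodendrocyte markers was 66076 to 70165, 63034 to 68466 and 61846 to 69751 on the same groups, and that of 8 astrocyte markers was 55237 to 57925, 56348 to 60539 and 55024 to 57693. That of 6 microglia and macrophage markers was 14524 to 16301, 13665 to 17683 and 11672 to 14405. The 4 tested endothelial, meningeal and blood markers summed to 5634 to 8088, 5815 to 15529.9 and 6778 to 8764. No marker was at 0 on any array. The part of marker levels, the share called Present and RNA integrity in the results below was not tested. In tissue RNA, fewer cells of a type and less RNA per cell cannot be told apart.

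Transection was set against saline on the lesion side, which asks how the cell bodies differ after a cut and after a sham injection. With the brightest tested probe set standing for each gene, all 8 genes were lower on the transection arrays, by a median of -0.26 on the log2 scale, beside a median of 0.00 over all 4413 probe sets. The count of 8 depends on this choice of probe set: other probe sets of Fdft1 and Scd2 were higher after transection, as given below. None of the 23 probe sets passed limma's adjusted p of 0.05, beside 32 of all 4413 (0.725%). Over the alternatives this 32 ran from 0, as without a day term, to 56 without the saline day 37 array. At an unadjusted p under 0.05, 7 of 23 probe sets (30.4%) from 4 genes were lower, beside 7.86% of all probe sets, and 3 (13.0%) from 2 genes were higher, beside 9.09%. Several of these probe sets measure the same gene and so are not independent. The low direction of the sterol genes was already known when the genes were chosen and is not independent support.

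Acat2, the thiolase at the pathway's entry, had a signal of 1851, 2255 and 2572 on days 4, 10 and 37 after transection, against 3549, 3197 and 2553 after saline (probe set rc_AA859980_g_at). The transection arrays lay lower on days 4 and 10 and the groups met on day 37. The difference was -0.47 (SE 0.16, limma adjusted p = 0.178). Its second probe set, rc_AA859980_at, had 1419.5, 1132 and 1283 after transection, against 2194, 1962 and 1459.9 after saline. There every transection array was lower than every saline array, and the difference was -0.53 (SE 0.14, limma adjusted p = 0.105).

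Idi1, the isomerase that supplies both isoprenoid building blocks, had 452, 546 and 708 on days 4, 10 and 37 after transection, against 686, 675 and 1071 after saline (AF003835_at). Within each day the transection array was lower, while transection day 37 lay above saline days 4 and 10, so the groups overlapped. The difference was -0.49 (SE 0.16, limma adjusted p = 0.179). The other Idi1 probe set, rc_AI045395_at, was Present on 4 of 16 arrays with signals of 18.7 to 102.0, near background.

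Cyp51, the lanosterol demethylase, was read by 4 tested probe sets. On rc_AA963449_s_at the signal was 1225, 1258 and 1338 on days 4, 10 and 37 after transection, against 1947, 1744 and 1889 after saline. The groups did not overlap, and the difference of -0.54 (SE 0.12, limma adjusted p = 0.0808) was the smallest p among the 23. With the deposited series value table in place of the signals it was -0.85 and passed, with a limma adjusted p of 0.0336 (0.0336 to 0.272 over 16 alternatives). AB004096_at had 991, 844 and 778 after transection, against 1370.5, 1213 and 1041 after saline, a difference of -0.46 (SE 0.12, limma adjusted p = 0.108). The brightest, U17697_s_at, had 3689, 3001 and 3263 after transection, against 3983, 4174 and 3971 after saline, and a difference of -0.29 (SE 0.13, limma adjusted p = 0.278). On both, too, every transection array was lower than every saline array. The fourth, rc_AA997614_s_at, ran apart, with 832, 1122 and 1315 after transection and 834, 1299 and 1566 after saline, lowest on day 4 of both and overlapping.

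Fdps, which joins isoprenoid units, had 2163, 2272 and 1976 after transection, against 2511, 2087 and 1960.3 after saline (M89945mRNA_at), and the groups overlapped with a difference of -0.03 (SE 0.12, limma adjusted p = 0.932). Its other probe sets, M89945mRNA_g_at and rc_AI180442_at, averaged lower after transection and overlapped, with mean log2 signals of 10.63 against 10.76 and 8.91 against 9.10. Fdft1, squalene synthase, had 1557, 1197 and 1299 after transection, against 1543, 1579.5 and 1668 after saline (M95591_at), close on day 4 and lower on days 10 and 37. Its difference was -0.25 (SE 0.13, limma adjusted p = 0.351). Another Fdft1 probe set, rc_H33426_at, differed the other way by 0.35 (SE 0.13, limma adjusted p = 0.219), with 455, 540.0 and 605 after transection and 355, 388 and 511 after saline. Fdft1 M95591_g_at and rc_H33426_g_at also averaged higher after transection, with mean log2 signals of 10.03 against 9.79 and 8.49 against 8.47. On both the groups overlapped. Sqle, squalene epoxidase and on the array through 1 probe set, had 2118, 2009 and 1659 after transection, against 2400.4, 2694 and 1924 after saline (D37920_at). It was lower on each of the 3 days, the groups overlapped, and the difference was -0.27 (SE 0.13, limma adjusted p = 0.318).

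Acly, which feeds acetyl-CoA to both sterols and fatty acids, had 6758, 7085 and 7328 after transection, against 6976, 7885 and 7556 after saline on its brightest probe set, J05210_g_at, and the groups overlapped (-0.08 (SE 0.10, limma adjusted p = 0.7)). On J05210_at it had 1932, 1538 and 2234 after transection, against 2410.3, 2738 and 2490.3 after saline. These groups did not overlap, with a difference of -0.43 (SE 0.15, limma adjusted p = 0.183). In all, 5 of the 23 probe sets (21.7%), from Cyp51, Acat2 and Acly, had every transection array below every saline array, beside 7.18% of all tested probe sets, and 0 had every transection array above, beside 7.93%.

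Scd2, a desaturase prominent in the brain, was read by 5 tested probe sets that did not run together. The brightest, rc_AA875269_at, had 12159.8, 12259 and 13142 after transection, against 15539, 14526 and 11213 after saline, with overlap and a difference of -0.12 (SE 0.12, limma adjusted p = 0.624). S75730_at had 1185, 1676 and 1429 after transection, against 663, 1550.2 and 752 after saline. AF036761_at had 4235, 5699 and 6454 after transection, against 3100.4, 5776 and 3239 after saline. On both of these probe sets the saline arrays of days 4 and 37 were low and that of day 10 lay among the transection arrays. Their differences were 0.62 (SE 0.20, limma adjusted p = 0.165) and 0.47 (SE 0.20, limma adjusted p = 0.254), opposite in sign to that of the brightest. The remaining Scd2 probe sets overlapped. The mean log2 signal after transection and after saline was 12.21 and 12.13 on U67995_s_at, and 13.45 and 13.59 on M15114_g_at.

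**Figure D1:**
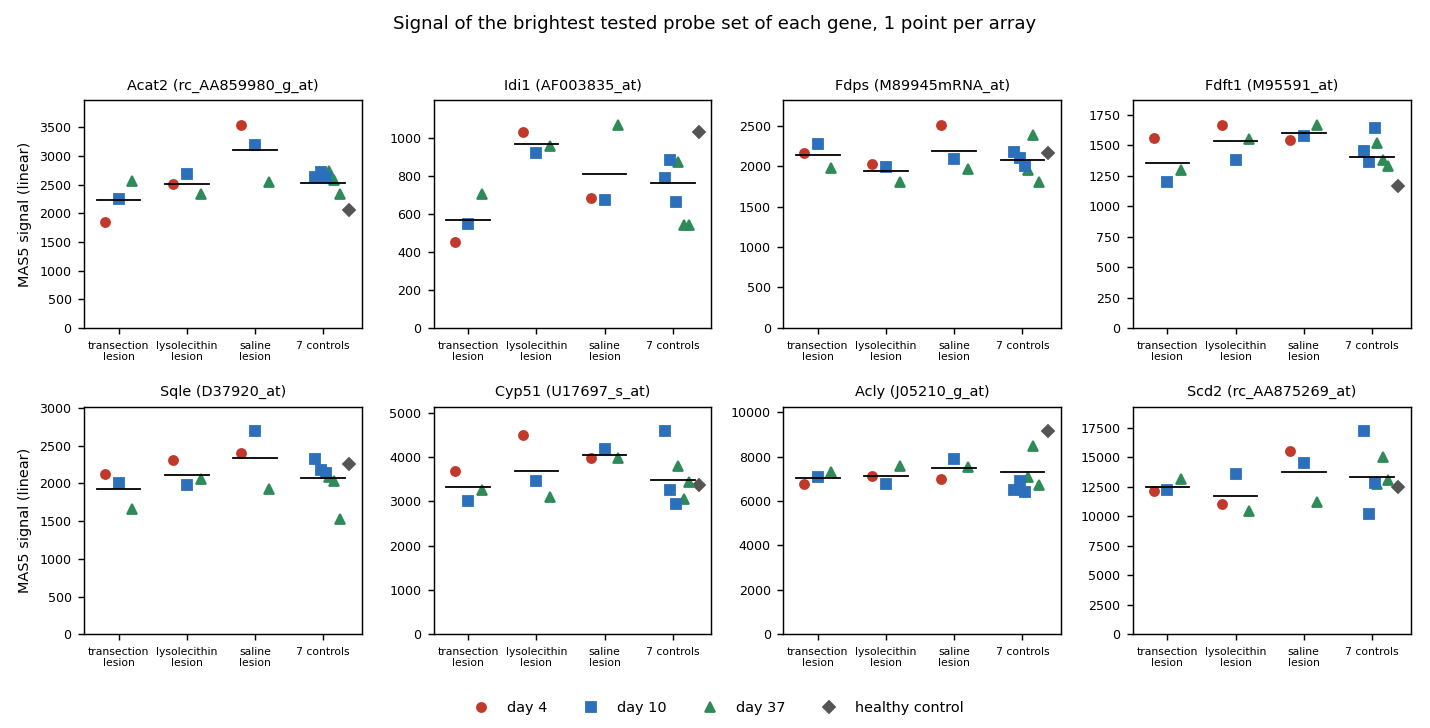
Linear MAS5 signal (y axes, from 0) of the brightest tested probe set of each gene on each array, by group (x axes), with colours and shapes for the day and the line at the group mean. Acat2 and Idi1 are lowest on the transection day 4 array (1851 and 452), and the 3 saline points of Cyp51 all lie above the 3 transection points.

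**Figure D2:**
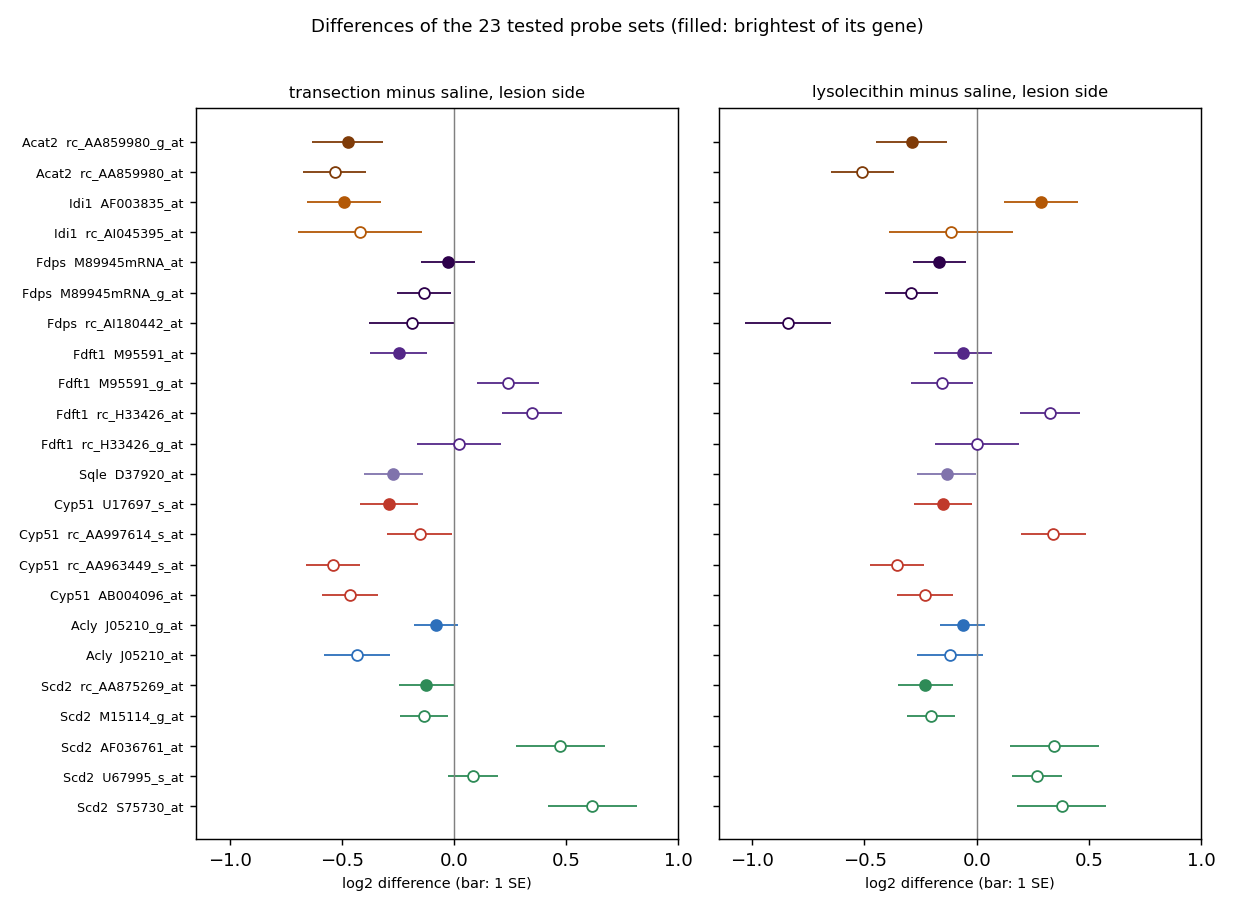
Log2 differences of the 23 tested probe sets on the lesion side, transection minus saline at left and lysolecithin minus saline at right, with bars of 1 SE and filled points for the brightest probe set of a gene. All 8 filled points lie left of 0 at left and 7 of 8 at right, while Scd2 S75730_at lies at 0.62 and 0.38.

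The differences were also taken day by day. Over the 8 genes the median log2 ratio of transection to saline was -0.20 on day 4, -0.35 on day 10 and -0.13 on day 37, beside 0.05, -0.03 and 0.00 over all tested probe sets. Over the 23 member probe sets the medians were smaller, -0.11, -0.30 and -0.04. Of these 23, 16, 19 and 13 were lower on the 3 days, beside 1955, 2357 and 2184 of 4413. Each day rests on 1 pair of arrays and has no test. The median difference of -0.26 became -0.17 without the saline day 10 array and ran to -0.31 without saline day 4.

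Lysolecithin was set against the same saline arrays. Of the 8 genes, each read by its brightest probe set, 7 were lower. The median log2 difference of the 8 was -0.14 beside 0.02 over all probe sets, and it became -0.05 without the saline day 10 array. The count of 7 depends on this choice: other probe sets of Cyp51, Fdft1 and Scd2 were higher, as given below. None of 23 probe sets passed the limma adjusted threshold, beside 0.159% of all. At an unadjusted p under 0.05, 4 probe sets (17.4%) were lower beside 9.93%, and 3 (13.0%) were higher beside 10.7%. Every lysolecithin array lay below every saline array for 3 probe sets (13.0%, beside 11.7%) and above for 0 (0.0%, beside 11.4%).

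The largest of these differences was in Fdps. On rc_AI180442_at it had 331, 326 and 227 on days 4, 10 and 37 after lysolecithin, against 669, 544 and 415 after saline. The groups did not overlap, and the difference was -0.84 (SE 0.19, limma adjusted p = 0.0871). Its other probe sets, M89945mRNA_g_at and M89945mRNA_at, differed by -0.29 (SE 0.12, limma adjusted p = 0.208) and -0.17 (SE 0.12, limma adjusted p = 0.446). When the transection day 10 array was left out of the fit, which changes the shared error and not the groups compared, rc_AI180442_at passed with a limma adjusted p of 0.0436 (0.0436 to 0.497 over 16 alternatives).

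Acat2 had 2508, 2692 and 2345 after lysolecithin on rc_AA859980_g_at, against the saline values above, lower within each day, with a difference of -0.29 (SE 0.16, limma adjusted p = 0.315). On rc_AA859980_at the values were 1612, 1195 and 1119 and the difference was -0.51 (SE 0.14, limma adjusted p = 0.112). Cyp51 had 1531, 1289.5 and 1543 on rc_AA963449_s_at, each below each saline array, with a difference of -0.35 (SE 0.12, limma adjusted p = 0.146). Of the brightest probe sets only that of Idi1 was higher after lysolecithin. Its signals of 1032, 923 and 960.2 lay above saline on days 4 and 10 and below it on day 37, with a difference of 0.29 (SE 0.16, limma adjusted p = 0.334). Sqle (2311, 1975 and 2057), Fdft1 on M95591_at (1669, 1381 and 1552) and Acly on J05210_g_at (7140.2, 6755 and 7559) overlapped the saline arrays, with differences of -0.13, -0.06 and -0.06. The 3 probe sets that were higher at an unadjusted p under 0.05 were none of the brightest. Cyp51 on rc_AA997614_s_at had 1372, 1590.0 and 1600.4 after lysolecithin, against 834, 1299 and 1566 after saline, higher within each day, with a difference of 0.34 (SE 0.14, limma adjusted p = 0.215). Fdft1 on rc_H33426_at had 458, 514 and 601 after lysolecithin, against 355, 388 and 511 after saline, also higher within each day (0.32 (SE 0.13, limma adjusted p = 0.208)). The third was Scd2 U67995_s_at (0.27 (SE 0.11, limma adjusted p = 0.216)). Scd2 on rc_AA875269_at (11033, 13594 and 10456) was lower within each day and overlapped as a group (-0.23 (SE 0.12, limma adjusted p = 0.302)). On M15114_g_at it had 10197 to 11074, against 11177 to 13255 after saline, 1 of the 3 lower probe sets without overlap. S75730_at and AF036761_at of Scd2 averaged higher after lysolecithin, with mean log2 signals of 10.25 against 9.87 and 12.27 against 11.92, and the groups overlapped.

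Between the injuries, transection against lysolecithin, Idi1 stood out among the members. Its signals of 452, 546 and 708 after transection all lay below the 1032, 923 and 960.2 after lysolecithin, averages of 568.5 ± 129.5 (SD, n = 3) and 972 ± 55.3 (SD, n = 3). The difference was -0.78 (SE 0.16, limma adjusted p = 0.0835), and over 16 alternatives the adjusted p ran from 0.0522 to 0.571. Fdps on rc_AI180442_at ran the other way, with 712, 337 and 419 after transection, all above the 331, 326 and 227 after lysolecithin, and a difference of 0.65 (SE 0.19, limma adjusted p = 0.197). So did Fdft1 on M95591_g_at, with 1025 to 1028 after transection, all above the 734 to 855 after lysolecithin (0.39, limma adjusted p = 0.238). Of the 8 genes 6 were lower after transection, with a median of -0.14 beside 0.00 over all probe sets. None of 23 passed with limma, beside 0.476%. At an unadjusted p under 0.05, 2 were lower and 2 higher (8.70% each), beside 6.80% and 6.75%. The arrays did not overlap for 2 lower (8.70%, beside 8.77%) and 2 higher (8.70%, beside 7.39%). These are near the background shares. The 3 comparisons between interventions come from 1 fit and share their arrays in pairs.

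**Figure D3:**
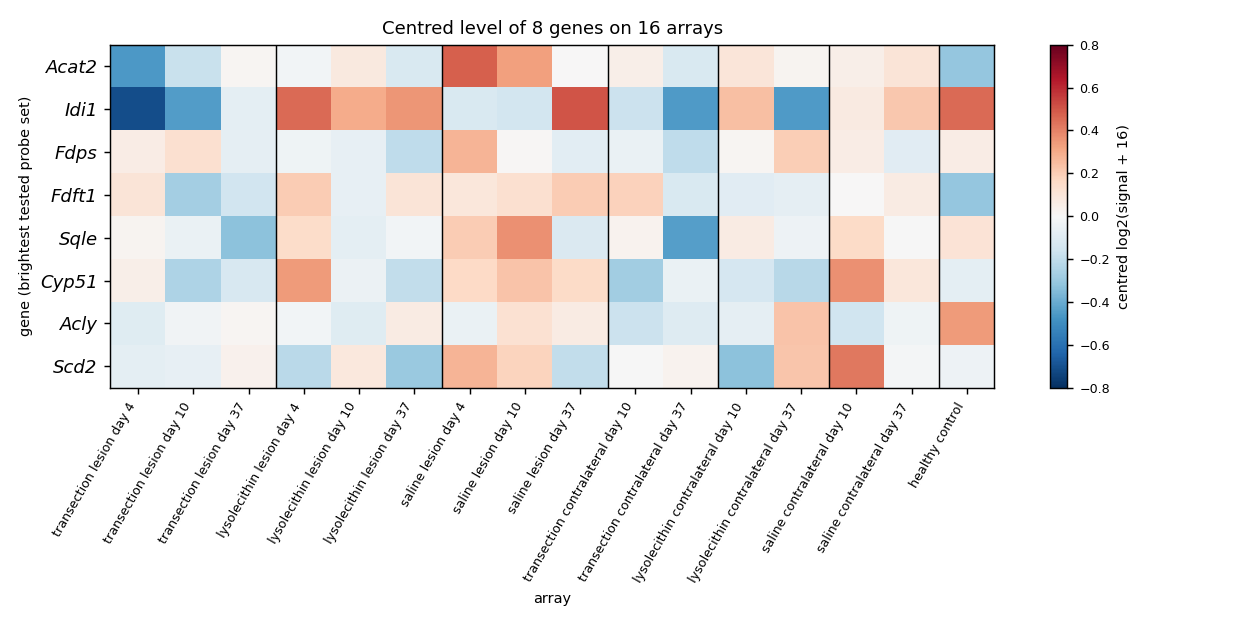
Log2(signal + 16) of the brightest tested probe set of 8 genes (rows), less its mean over the 16 arrays (columns; red above, blue below the mean, scale in log2 units). On the transection day 10 lesion-side and day 37 contralateral arrays 1 of 8 genes lies above its mean, against 7 of 8 on both saline day 10 arrays.

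Set against the 7 control arrays, the saline lesion side stood higher in all 8 genes, with a median log2 difference of 0.13, beside 0.00 over all probe sets. The median became 0.0706 without the transection day 37 contralateral array. No probe set of 4413 passed with limma (0.0%), and none of the 23. At an unadjusted p under 0.05, 7 of 23 (30.4%) from 4 genes were higher, beside 4.49%, and 2 (8.70%), both of Scd2, were lower, beside 7.95%. Cyp51 on rc_AA963449_s_at had 1947, 1744 and 1889 after saline, against 993 to 1395 (median 1212) on the controls. Its difference was 0.62 (SE 0.11, limma adjusted p = 0.0721), the smallest p of all 4413 probe sets here. It passed with the series value table, at 0.83 and an adjusted p of 0.0450 (0.0450 to 0.932 over 23 alternatives). Acly on J05210_at had 2410.3, 2738 and 2490.3 after saline, against 1073 to 2247 (median 1762) on the controls, and a difference of 0.58 (SE 0.18, limma adjusted p = 0.329). How many of all probe sets kept the saline lesion side apart from the controls was not counted. Acat2 on rc_AA859980_g_at had 3549, 3197 and 2553, against 2051 to 2738 (median 2633) on the controls. Its day 37 array lay among the controls, and the difference was 0.28 (SE 0.13, limma adjusted p = 0.389).

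The transection lesion side was set against the same controls. Of the 8 genes 7 were lower there and their median was -0.07, 0 of 23 probe sets had even an unadjusted limma p under 0.05, and 1 of 4413 passed the adjusted threshold (0.0227%; 11% at the unadjusted p). Idi1 had 452, 546 and 708 after transection, against 543 to 1034 (median 789.7) on the controls, overlapping (-0.40 (SE 0.20, limma adjusted p = 0.483)). Cyp51 on rc_AA963449_s_at had 1225, 1258 and 1338 after transection, against the control range given above, overlapping as well, with a difference of 0.08 (SE 0.11). The lysolecithin lesion side had 4 of 8 genes higher and a median of 0.02, which turned to -0.0289 without the transection day 37 contralateral array and to -0.0263 without the lysolecithin day 4 lesion-side array. With limma 0 of 4413 probe sets passed (0.0%), and 3 of 23 (13.0%) had an unadjusted p under 0.05, beside 4.65%, all higher: Acly J05210_at (0.46 (SE 0.18, limma adjusted p = 0.972)), Scd2 U67995_s_at (0.46 (SE 0.16, limma adjusted p = 0.972)) and Cyp51 rc_AA963449_s_at (0.27 (SE 0.11, limma adjusted p = 0.972)). The comparisons of saline with controls and of the injuries with saline share the saline lesion-side arrays, so a high value on those arrays enters both.

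Within each intervention and day, the lesion side was compared with the contralateral side in 6 pairs of arrays, which the labels do not say came from the same rats. The 8 genes split evenly, 4 higher and 4 lower on the lesion side, with a median log2 difference of 0.00. No probe set of 4413 passed with limma (0.0%). At an unadjusted p under 0.05, 4 of 23 (17.4%) were higher and 0 lower, beside 4.96% in either direction. Scd2 on U67995_s_at was higher on the lesion side in 6 of 6 pairs, by log2 ratios of 0.19 to 0.52. After transection it had 4805 and 5352 on the lesion side, against 3436 and 4705 on the contralateral side on days 10 and 37. After lysolecithin it had 5419 and 5816, against 3779.9 and 4657, and after saline 5245 and 4568, against 4598 and 3894. The difference was 0.32 (SE 0.08, limma adjusted p = 0.826). Acly on J05210_at was higher in 5 of 6 pairs, with a difference of 0.44 (SE 0.10, limma adjusted p = 0.826). The widest gap was 2490.3 on the lesion side against 1513 on the contralateral side on day 37 after saline, and the exception was day 37 after transection. Neither gene's brightest probe set showed this, with differences of -0.10 (SE 0.10) for Scd2 and 0.07 (SE 0.08) for Acly. Cyp51 on rc_AA963449_s_at and Fdft1 on rc_H33426_at completed the 4, higher in 5 of 6 pairs each, by 0.28 (SE 0.10, limma adjusted p = 0.916) and 0.25 (SE 0.11, limma adjusted p = 0.945).

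On the contralateral side itself, transection against saline averaged lower for all 8 genes, with a median over genes of -0.15, beside -0.01 over all probe sets. For Fdft1 on M95591_at the groups nearly met, with mean log2 signals of 10.545 and 10.550. With 2 arrays a group the precision was low: none of 4413 probe sets passed with limma (0.0%), and 0 of 23 had an unadjusted p under 0.05, beside 3.15%. Idi1 had 664 and 543 on days 10 and 37 on the transection contralateral side, against 789.7 and 874 on the saline contralateral side, with a difference of -0.46 (SE 0.25, limma adjusted p = 0.999). Cyp51 on U17697_s_at had 2932 and 3436, against 4589.7 and 3788 (-0.39 (SE 0.22, limma adjusted p = 0.999)). Whether the side difference itself differed between transection and saline was tested directly. The median over genes was -0.01, 0 of 4413 probe sets passed (0.0%), and 1 of 23 (4.35%), Scd2 AF036761_at, had an unadjusted p under 0.05, beside 3.26%. For Idi1 this difference of differences was 0.02 (SE 0.34) and for Cyp51 rc_AA963449_s_at -0.35 (SE 0.26).

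Lysolecithin against saline on the contralateral side was lower for 6 of 8 genes, median -0.09. None of 23 passed with limma, beside 0.0227%, and 1 (4.35%) had an unadjusted p under 0.05, beside 3.60%. It was Scd2 AF036761_at, with 3947 and 3769 on the lysolecithin contralateral side, against 6618 and 7188 on the saline contralateral side (-0.84 (SE 0.21, limma adjusted p = 0.35)). On the lesion side the same probe set had 4739, 4349.8 and 5803 after lysolecithin and 3100.4, 5776 and 3239 after saline. Its side difference was 1.05 higher after lysolecithin than after saline (SE 0.33, limma adjusted p = 0.9996) and 0.74 higher after transection than after saline (SE 0.33, adjusted p = 0.997). In the lysolecithin minus saline side difference 2 of 23 probe sets (8.70%), both of Scd2, had an unadjusted p under 0.05, beside 3.06%, and the median over genes was -0.07. No probe set passed (0.0%).

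Across days on the lesion side, with intervention in the model, the members ran in different directions. Day 37 against day 4 had 9 of 23 probe sets (39.1%) from 6 genes at an unadjusted p under 0.05, beside 16.4%, of which 4 were higher and 5 lower. None passed with limma, beside 0.0227%. Idi1 was higher on day 37 than on day 4 by 0.39 (SE 0.16, limma adjusted p = 0.28). Fdps on rc_AI180442_at was lower, by -0.64 (SE 0.19, limma adjusted p = 0.166), and so was Acat2 on rc_AA859980_at, by -0.42 (SE 0.14, limma adjusted p = 0.191). Cyp51 split by probe set, 0.59 (SE 0.14, limma adjusted p = 0.147) on rc_AA997614_s_at and -0.33 (SE 0.12, limma adjusted p = 0.233) on AB004096_at. Day 10 against day 4 had 5 of 23 (21.7%) at the unadjusted p, beside 13.2%, with 0 past the threshold beside 0.0453%. The largest of these was Scd2 S75730_at, 0.63 (SE 0.20, limma adjusted p = 0.261). Day 37 against day 10 had 0 of 23, beside 7.84%, and no probe set of 4413 passed (0.0%). The medians over genes were -0.01 for day 10 and -0.11 for day 37 against day 4, and -0.07 for day 37 against day 10. The beta-actin ratio of 3′ to 5′ signal spanned 1.42 to 1.68 on the 3 day 4 arrays, against 1.08 to 1.41 on day 10 and 1.07 to 1.43 on day 37. The GAPDH ratio was not higher on day 4, with 1.05 to 1.16, against 1.09 to 1.19 on day 10 and 1.03 to 1.16 on day 37.

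Probe sets of 1 gene were set against each other. Over the 16 arrays, M89945mRNA_g_at and rc_AI180442_at of Fdps correlated at r = 0.88 and the probe sets of Acat2 at 0.70. In Cyp51, 3 probe sets, AB004096_at, U17697_s_at and rc_AA963449_s_at, correlated at 0.54 to 0.70, while rc_AA997614_s_at correlated with them at -0.31 to 0.00. In Scd2, AF036761_at and S75730_at correlated at 0.91, rc_AA875269_at and M15114_g_at at 0.65, and the first pair with the second at -0.33 to 0.11. The Fdft1 probe sets correlated at -0.54 to 0.25, those of Acly at 0.30 and those of Idi1 at -0.23. Between the brightest probe sets of the 8 genes the median of 28 correlations was 0.20, with 20 positive and a range of -0.37 to 0.49. All points share the 16 arrays and their scaling, and the values are descriptions.

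**Figure D4:**
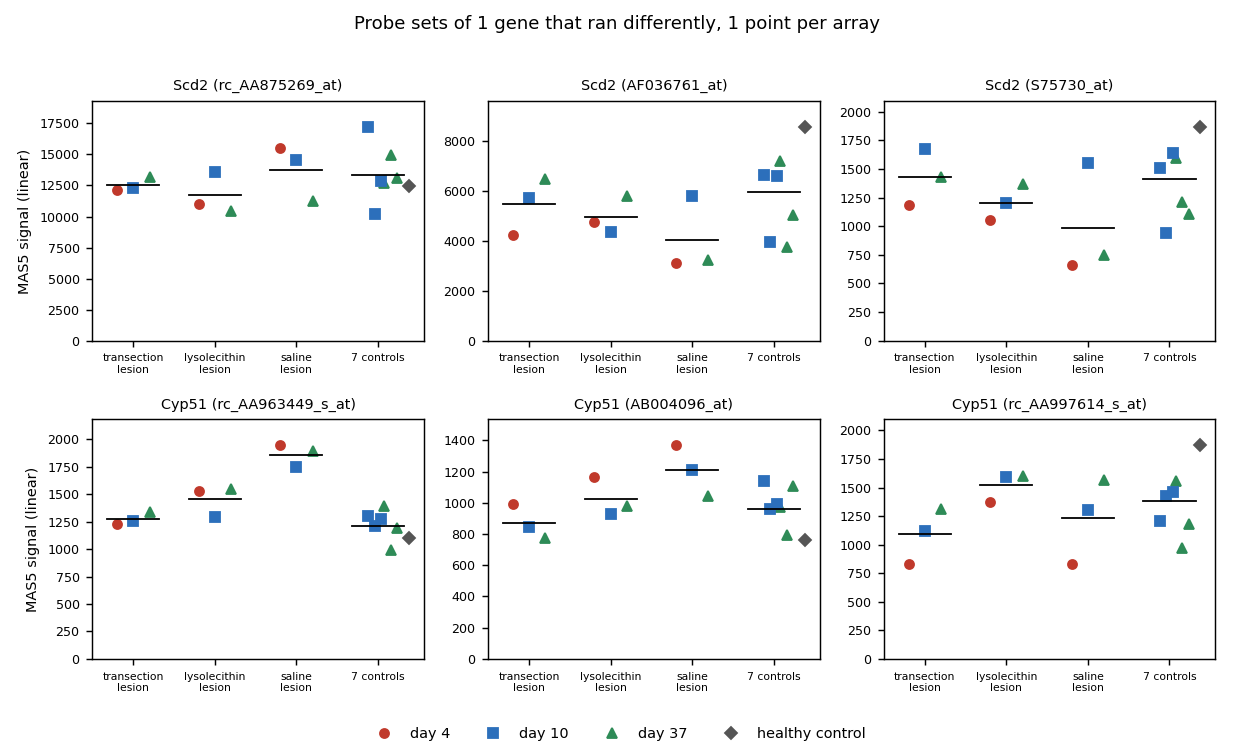
Linear MAS5 signal (y axes, from 0) of 3 probe sets of Scd2 (top) and 3 of Cyp51 (bottom) on each array, by group (x axes), with colours and shapes for the day and the line at the group mean. Scd2 S75730_at and AF036761_at are low on saline days 4 and 37 (663 and 752, 3100.4 and 3239), rc_AA875269_at has its highest saline lesion-side value on day 4 and its lowest on day 37 (15539 and 11213), and Cyp51 rc_AA997614_s_at has its lowest values on day 4 (832 after transection and 834 after saline).

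Other genes of the same pathways were read from lists. Of 8 further sterol synthesis genes tested, none passed in transection against saline, with 3 higher and 5 lower and a median log2 difference of -0.05. Mevalonate kinase, Mvk (rc_AA924198_s_at), had 257, 325 and 469 after transection, against 443, 510.0 and 495 after saline. The 7 controls had 254 to 461 (median 409). Mvk was Present on 3 of 3 saline, 1 of 3 lysolecithin, 0 of 3 transection and 0 of 7 control arrays. It thus passed the detection filter through the saline arrays, where it was high. Neither its calls, its lower signals nor its place among the 5 lower genes is support for a fall after transection. Lss, which closes the sterol ring, differed by 0.26 (SE 0.14, limma adjusted p = 0.373), Msmo1, a sterol demethylating oxidase, by -0.09 (SE 0.10), and Mvd, mevalonate diphosphate decarboxylase, by -0.02 (SE 0.14). Dhcr7, the last enzyme of cholesterol synthesis, split between probe sets, 0.14 (SE 0.15) and -0.45 (SE 0.13, limma adjusted p = 0.144). In lysolecithin against saline, 4 of these 8 were higher and 4 lower, median 0.00, none past the threshold.

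Among 10 further fatty acid synthesis genes, none passed, with 3 higher and 7 lower after transection than after saline (median -0.09). The desaturase Scd (J02585_at) had 753, 725 and 728 after transection and 770.1, 669.9 and 794 after lysolecithin, against 1039, 946 and 896 after saline. Every array of both injuries lay below every saline array, with differences of -0.38 (SE 0.13, limma adjusted p = 0.183) and -0.36 (SE 0.13, limma adjusted p = 0.158). For each injury alone, 7.18% and 11.7% of all tested probe sets did so. The 7 controls, at 631 to 875 (median 783.5), were also lower than the saline lesion side. The share of all probe sets with this order was not counted. Fasn, fatty acid synthase, differed by -0.08 (SE 0.13) between transection and saline on its brightest probe set and by -0.31 (SE 0.13, limma adjusted p = 0.248) on the other. Of 8 genes of sterol regulation and transport, 4 were higher and 4 lower after transection (median -0.05). They include Insig1, which holds SREBP in check (-0.15, SE 0.16), and Apoe, the main lipoprotein carrier of brain cholesterol (0.00, SE 0.10). Of 16 genes of fatty acid oxidation and ketone use, 13 were higher and 3 lower, with a median of 0.09. None passed.

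Beside these lists stood the markers of cells. In transection against saline on the lesion side, all 6 microglia and macrophage markers were higher, with a median of 0.37 and none past the threshold (smallest limma adjusted p 0.0897), and 5 of 7 neuronal markers were lower, with a median of -0.08. Of the 9 oligodendrocyte markers 7 were higher, with a median of 0.05. In lysolecithin against saline the medians were 0.50 for the microglia and macrophage, -0.15 for the neuronal and 0.01 for the oligodendrocyte markers. The 8 astrocyte markers had a median centred log2 signal per lesion-side array of 0.11 to 0.15 after transection. It was -0.02 to 0.06 after lysolecithin and -0.19 to 0.06 after saline, so transection lay above saline though the summed signals overlapped. On the contralateral side the microglia and macrophage markers summed to 16167 and 17378 after transection and to 16019.9 and 19755 after lysolecithin, against 11169 and 11173 after saline. The part of these markers in the members' values was not tested.

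The genes whose pattern was most like that of the members were taken by Pearson's r with the members' mean centred log2 signal. Over all 16 arrays they were Endod1 (r = 0.83), Sncb, which encodes beta-synuclein of nerve terminals (0.79), Cnrip1 (0.76), Rgs8, a regulator of G protein signalling (0.75), and Agtpbp1, a tubulin carboxypeptidase (0.74). Over the 9 lesion-side arrays they were Sncb (0.96), the neural transcription factor Pou3f3 (0.92), Iqsec1 (0.90), Rnaseh2a (0.90) and Cnrip1 (0.88). They were the highest of the tested probe sets with 1 symbol on few arrays that share their scaling, and the values are descriptions. No other gene of the sterol or fatty acid lists was among them.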

How the data were processed

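Total RNA of 16 rat pontine nuclei samples was extracted with Trizol and hybridised as biotin-labelled cRNA to 1 Affymetrix rat array each, per the labels' protocols. The authors deposited linear intensities, 1 signal for every probe set and array, whose trimmed mean is the same on all 16 arrays. MAS5 is named in the submitters' processing notes with no version. Detection calls and the p-values behind them, named as such per the file headers, were taken over unchanged. A second deposited table gives values that behave as log2 for 7773 probe sets. Its making is not given in the sources used here, and it served as an alternative. Genes were named from the platform annotation, where 6283 of 8799 probe sets had 1 symbol, 280 several and 2236 none. How many rats each array stood for is not given in the sources used here, and the number of arrays limits the precision.

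Signals were analysed as log2(signal + 16), so fold changes of dim probe sets are understated. The 4413 probe sets called Present on at least 3 arrays were tested, leaving out 59 control probe sets. Each comparison was a linear model across all of these probe sets in limma 3.58.1 (R 4.3.3) with a trend of variance on brightness, and p-values were adjusted by Benjamini-Hochberg across all 4413 and read at 0.05. Interventions and days were compared over the 9 lesion-side arrays with both as terms, contralateral interventions over 6 arrays with day as a term, lesion groups and controls over 16 arrays in 4 groups, and sides over 6 pairs with the pair as a block. The pairs are the lesion and contralateral samples of 1 intervention and day, as labelled. For some of the comparisons the fits were also run on simulated data with known changes. That noise was independent, with no day or pair effect, so the run does not cover these features of the arrays. Descriptions and figures used Python 3.11.15 with matplotlib 3.10.9, pandas 2.3.3 and numpy 2.4.6.

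The members and lists were chosen with earlier results of these data known. All member probe sets are named, and the brightest tested one stands for its gene. Of the other lists, a set of best-known enzymes and regulators and the 5 closest patterns could be named. Alternatives were pseudocounts of 1 and 64, quantile normalization, no detection filter, no trend, no day term, no pair block, contralateral controls alone, the series value table and each array left out in turn.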

Additional observations from a re-analysis of the deposited data

Results flagged for a closer look

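In 46 sets of control arrays (23 probe sets, each over the 7 controls and over the 6 contralateral arrays among them), 5 had 1 array whose gap to its nearest neighbour took an unusually large share of the whole range on the log2 scale. Chance alone gives about 5% of such sets.

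Sqle (D37920_at) had a signal of 1530.2 on the transection day 37 contralateral array, below the 2026 to 2321 of the other controls, a gap of 0.673 of the range in both sets. Acat2 on the same array (rc_AA859980_g_at) had 2337, below the 2583 to 2738 of the other contralateral arrays, a share of 0.632. On its other probe set (rc_AA859980_at) Acat2 had 710.1 on the healthy control, below the 1292 to 1660.3 of the contralateral arrays, a share of 0.704. Acly (J05210_g_at) had 8477 on the lysolecithin day 37 contralateral array, above the 6423 to 7063 of the other contralateral arrays, a share of 0.658.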

How the results depend on the processing

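All 55 differences of single probe sets with an unadjusted limma p under 0.05 kept their sign under every alternative run. The count of member probe sets past the adjusted threshold was 0 in each of the 14 comparisons and stayed 0 under 240 of 243 alternatives. In several comparisons and alternatives no probe set at all passed, so a count of 0 was fixed there and does not describe the members. In transection against saline on the lesion side this held with no detection filter, no trend or no day term. With the series value table it was 1 in transection against saline on the lesion side and 1 in the saline lesion side against controls, Cyp51 rc_AA963449_s_at in both. In lysolecithin against saline it was 0 to 1 with single arrays left out, the 1 being Fdps rc_AI180442_at without the transection day 10 array. The cause of these changes was not tested.

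The median log2 difference of the 8 genes moved more. With the series value table it was -0.0475 in lysolecithin against saline, -0.0657 in day 37 against day 4, -0.13 in the lysolecithin minus saline side difference and -0.0403 in lysolecithin against saline on the contralateral side. With quantile normalization it was -0.056 in day 10 against day 4, -0.0671 in day 37 against day 4 and -0.11 in transection against saline on the contralateral side. With single arrays left out it ran from -0.31 to -0.17 in transection against saline, -0.15 to -0.0459 in lysolecithin against saline and -0.16 to -0.0694 in transection against lysolecithin. For the days it ran from -0.0958 to -0.0077 (day 10 against day 4), -0.23 to -0.0732 (day 37 against day 4) and -0.12 to -0.0163 (day 37 against day 10). For the side differences it ran from -0.0909 to 0.0573 (transection minus saline) and -0.13 to 0.0044 (lysolecithin minus saline), and on the contralateral side from -0.19 to -0.0716 (transection against saline) and -0.12 to 0.0204 (lysolecithin against saline). Against the controls it ran from -0.10 to -0.0537 for the transection, -0.0289 to 0.0499 for the lysolecithin and 0.0706 to 0.17 for the saline lesion side, and from -0.0311 to 0.0254 between the sides. With an array left out it thus changed sign in 5 comparisons. With the series value table it changed sign in 4 comparisons whose median lay near 0, to 0.0123 in day 10 against day 4, -0.0194 in the lysolecithin lesion side against controls, 0.0018 between the sides and 0.0306 in the transection minus saline side difference. The cause was not tested.

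The block of the lesion and contralateral pair was part of the side comparison as reported. Without the pair block its median stayed 0.00 and its count 0. The labels give no replicate numbers, and the interventions were matched by day through the day term. The alternative with no day term was not run for the comparisons between days. Each condition had 1 array, and probe sets near background, such as Idi1 rc_AI045395_at, limit what can be read of low levels.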

Other observations

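The 2 member probe sets left untested were called Absent on all 16 arrays. Acly L27075_g_at had signals of 62.3 to 429 on the 9 lesion-side arrays and 247 to 509 on the 7 controls, and Cyp51 rc_AI230255_at had 189 to 302 on the lesion-side arrays and 193 to 353 on the controls.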
